A study of Mus musculus with 4 samples.

Results

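The 620 cells described here were high-Dcx cells of the caudal ganglionic eminence (CGE) of the mouse embryo at E12.5, from dividing cells to young neurons, that held transcripts of both Nr2f2 and Prox1. They came from a droplet library in which 4301 cell barcodes carried 31451467 UMIs (unique molecular identifiers, each counted as 1 transcript molecule). Of these barcodes, 3248 had more than 1500 and fewer than 4500 genes, under 5% mitochondrial UMIs and under 1% beta-globin (Hbb) UMIs, and 2330 of those were high-Dcx cells, with ln(1 + UMIs per 10000) of Dcx above 1.5. Members were chosen by their measured levels of 7 genes, so those levels are no finding here. They had this Dcx level, 2 or more UMIs of Nr2f2, at least 1 UMI of Prox1 and no UMI of Lhx6, Ebf1, Neurod2 or Neurod6, and formed 26.6% of the high-Dcx CGE cells (exact 95% interval 24.8 to 28.5) and 19.1% of the 3248. The study profiled wild-type (wt) brain of this age by single-cell RNA sequencing in 4 regions, the CGE, the medial (MGE) and the lateral (LGE) ganglionic eminence and the cortex (CTX), and asked how progenitors and young neurons differ between them. The C57BL/6 mice carried no transgene or treatment, tissue was pooled over embryos of both sexes, and each region is represented here by 1 library, so no comparison below has a replicate, a p-value or an SE. Intervals are 95%, exact, and cover counting error in these libraries only.

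The CGE is a transient swelling of the ventral telencephalon that gives rise to GABAergic interneurons which travel tangentially into the cortex, hippocampus and amygdala. Dividing progenitors in its ventricular and subventricular zones (VZ and SVZ) express Dlx genes as they commit to a GABAergic fate, turn on Dcx, a microtubule-associated protein of migrating neuroblasts, and leave for the mantle zone (MZ). Nr2f2 (COUP-TFII) is an orphan nuclear receptor enriched in the caudal eminence, and Prox1 is a homeodomain protein that CGE-derived cortical interneurons retain into adulthood and need for their migration and differentiation. Lhx6 marks MGE-derived neurons, Ebf1 striatal projection neurons, and Neurod2 and Neurod6 glutamatergic neurons, so the exclusions remove cells of those lineages in which these transcripts were caught.

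Nr2f2 (ENSMUSG00000030551.9) lies on chromosome 7 of GRCm38 at 70351944 to 70366735 on the minus strand, and Prox1 (ENSMUSG00000010175.9) on chromosome 1 at 190118035 to 190170714, also on the minus strand. The promoter windows of both genes, from RefSeq on GRCm38.p6, are printed because co-detection of these 2 transcripts defines the cells. RefSeq gives Prox1 a pair of windows, and the outer one, at chr1:190170778-190171077, is printed because it lies in an intron of Prox1os, an antisense transcript on the plus strand to which the results return. The Nr2f2 window spans chr7:70366697-70366996. Capitals mark matches of GGGCGG, the GC box, read on both strands, a motif chosen after the windows were seen.

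Prox1: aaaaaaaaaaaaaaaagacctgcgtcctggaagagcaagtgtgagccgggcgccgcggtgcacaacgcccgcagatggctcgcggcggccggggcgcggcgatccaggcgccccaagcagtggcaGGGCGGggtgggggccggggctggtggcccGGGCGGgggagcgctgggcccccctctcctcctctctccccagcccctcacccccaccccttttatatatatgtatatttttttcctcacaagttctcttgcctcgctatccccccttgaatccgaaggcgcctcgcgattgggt

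Nr2f2: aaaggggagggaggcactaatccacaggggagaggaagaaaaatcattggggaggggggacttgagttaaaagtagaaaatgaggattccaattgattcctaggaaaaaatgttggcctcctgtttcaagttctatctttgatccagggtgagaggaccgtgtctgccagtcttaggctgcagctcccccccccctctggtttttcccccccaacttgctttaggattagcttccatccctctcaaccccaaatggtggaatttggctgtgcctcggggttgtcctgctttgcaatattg

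The printed Prox1 window held 2 matches, the inner one at chr1:190169466-190169765 held 1, and the Nr2f2 window held 0, while 35.7% of 32851 promoter windows of the same length held at least 1. AGGTCA (a nuclear receptor half-site), CAGCTG (an E-box) and TAATTA (a homeodomain core), each searched on both strands, had no match in any of these windows and occurred in 16.3%, 16.3% and 5.29% of all windows. These letters describe the windows and say nothing of which factors bind there.

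Nr2f2 detection was common and Prox1 detection decided membership. Of the 2330 high-Dcx cells, 1536 had 2 or more UMIs of Nr2f2, and 742 of those had a UMI of Prox1. Leaving out cells with Lhx6 reduced 742 to 661, Ebf1 to 633, Neurod2 to 623 and Neurod6 to 620. Members held a median of 6 UMIs of Nr2f2 and a maximum of 30, but a median of 2 UMIs of Prox1, and 193 members (31.1%) rested on a single Prox1 UMI. Just inside the Prox1 threshold, cells with 1 UMI had 460 UMIs per 1000000 (CPM, taken over the summed UMIs of the cells) of Mapt, the axonal microtubule protein tau, whereas the 420 cells just outside, with 2 or more UMIs of Nr2f2 and none of Prox1, had 895 CPM. On either side of the Nr2f2 threshold, at 2 and at 1 UMI, Mapt was 494 and 497 CPM and Prox1 464 and 329 CPM. The 23 cells just below the Dcx gate (1.4 to 1.5) had 191 CPM of Mapt and the 33 just above it (1.5 to 1.6) 531 CPM. The 48 cells that failed by 1 UMI of an excluded gene had 878 CPM of Nr2f2 and 372 CPM of Prox1.

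**Figure D1:**
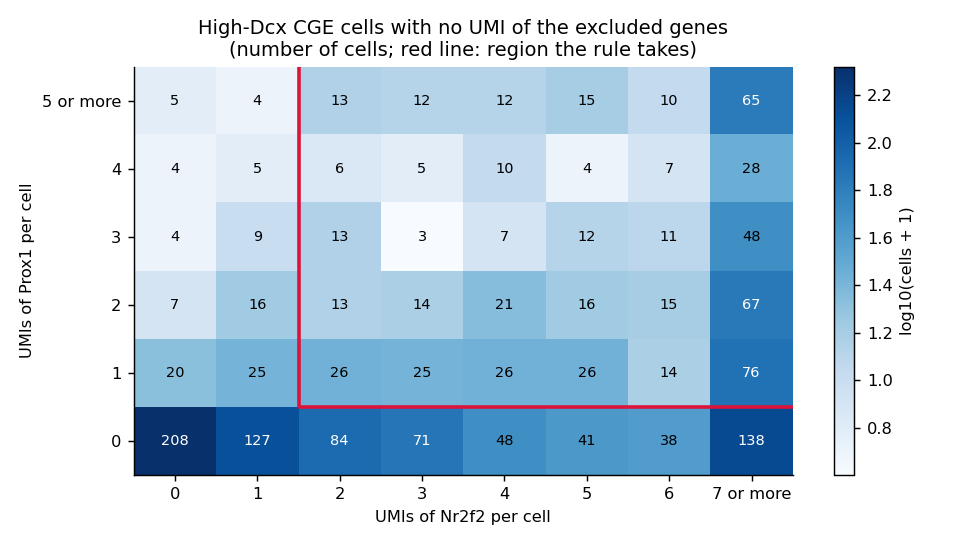
Number of high-Dcx CGE cells without a UMI of the excluded genes, by UMIs of Nr2f2 (horizontal) and of Prox1 (vertical) in the cell. The red line bounds the members; 208 cells had neither transcript, and 138 cells with 7 or more UMIs of Nr2f2 had no Prox1.

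The same rule found almost no cells elsewhere. In the MGE library 22 of 2272 high-Dcx cells (0.968%, 0.608 to 1.46) passed, and in the LGE and CTX libraries 0 of 2198 and 0 of 816, which allow shares of up to 0.136% and 0.368%. Because the exclusions remove most MGE neurons and most high-Dcx CTX cells, the share among high-Dcx cells without the excluded transcripts was also taken. It was 42.1% of 1474 in CGE (39.5 to 44.6), 6.90% of 319 in MGE (4.37 to 10.3) and 0 of 1392 in LGE. In CTX it was 0 of 20, which allows up to 15%, so the CTX library says little about such cells. Over the high-Dcx cells of each library, Nr2f2 stood at 646 CPM in CGE, 93.0 in MGE, 10.2 in CTX and 1.68 in LGE, and Prox1 at 152, 80.7, 3.79 and 17.3 CPM. Region and library cannot be told apart with 1 library each. Between 4 and 15 barcodes were shared by each pair of libraries, and 1 member each shared its barcode with CTX and with MGE.

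Members were set against 2 groups, the 1710 other high-Dcx CGE cells (all others) and the 854 of these that also lacked the excluded transcripts (matched others), which failed by Nr2f2, by Prox1 or by both. The matched others are the nearer comparison, because the exclusions by themselves take MGE-type, striatal and glutamatergic cells out of the members. Members were somewhat deeper than either group, with a median of 7156 UMIs per cell against 6614 in all others and 6298 in matched others, and mitochondrial shares were alike at medians of 1.98%, 1.92% and 2.03%.

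The label of interneuron precursors was checked against its 5 markers, and the data bore out part of it. Nr2f2 at 936 CPM and Prox1 at 409 CPM in members were set by the rule. Of the other markers, Sp8, a zinc finger factor of CGE and dorsal LGE neuroblasts, was at 119.9 CPM in members, 89.1 in matched others and 48.9 in all others, a ratio to matched others of 1.34 (1.19 to 1.52). Cxcl14, a chemokine gene, was lower in members (96.7 CPM) than in matched others (121 CPM, ratio 0.80, 0.709 to 0.903), though higher than in all others (69.7 CPM). Nrp2, a semaphorin receptor, was lower than in either group, at 82.3 CPM in members, 105 in matched others and 99.9 in all others. After each cell was thinned to 3000 UMIs, which left out 7 members and 23 matched others, 28.2% of members and 18.7% of matched others had a UMI of Sp8, 16.0% and 16.6% one of Cxcl14, and 19.6% and 22.6% one of Nrp2. Unthinned, 46.0%, 21.1% and 29.7% of members had a UMI of Sp8, Cxcl14 and Nrp2. In high-Nes cells, the progenitors that should lack these transcripts, the thinned shares were 0.613% for Sp8 and 0 of 163 cells for Cxcl14 and for Nrp2, which allows up to 1.84%, at a median of 9434 UMIs. In Neurod cells (high-Dcx cells with Neurod2 or Neurod6, 108 in number) they were 4.63%, 0.926% and 25%. Cxcl14 and Nrp2 therefore marked subsets of members and of the other cells alike, and did not separate members from matched others.

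Members carried GABAergic transcripts, a trait they shared with matched others. After thinning, 68.0% of members and 77.0% of matched others had a UMI of Gad2, which makes GABA. For Dlx5 these shares were 68.0% and 58.8%. Neurod cells, which the rule bars from the members, had less. Gad2 stood at 442 CPM in members against 91.5 CPM in Neurod cells. Dlx1, Dlx2 and Dlx5, transcription factors of GABAergic commitment and migration, stood at 690, 603 and 458 CPM against 52.6, 58.3 and 57.2 CPM. The 16 glutamatergic genes, such as Slc17a6 and Tbr1, summed to 21.5 CPM in members, 17.4 in matched others and 1850 in Neurod cells. For other cell types, the 8 endothelial genes summed to 4.94 CPM in members with 5 of 8 detected and Kdr at 0, the 8 pericyte and mesenchymal genes to 4.73 CPM with 4 of 8 detected and Col1a1 at 0, the 8 microglial genes to 2.15 CPM with 4 of 8 detected and Csf1r at 0, and the 8 globin and heme genes to 24.5 CPM against 26.8 in matched others. Markers of mature CGE interneuron classes were low or at 0. Vip was at 0 in members, which allows up to 0.644 CPM. Calb2 (calretinin) was at 2.79 and Reln (reelin) at 6.44 CPM, with a UMI of Reln in 4.19% of members and 7.61% of matched others. Both genes were lower than in matched others, with ratios of 0.441 (0.214 to 0.855) for Calb2 and 0.356 (0.229 to 0.541) for Reln.

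Between members and matched others, 252 of 6940 genes were 1.5-fold or more higher in members, which is 3.63% of the genes at 20 or more CPM in either sum with the 7 rule genes left out, and 400 genes (5.76%) were 1.5-fold or more lower. Against all others, 275 of 6921 genes (3.97%) were higher and 392 (5.66%) lower. At 2-fold, 1.83% and 2.23% of genes were higher and lower than in all others, and 1.41% and 2.18% than in matched others. These counts come from sums over cells of 1 library and carry no test. The largest ratios to matched others among genes at 50 or more CPM fell into 2 kinds. Genes of mitosis made up one, with Ccnb2 (2.97), Nusap1 (2.96), Hmmr (2.57), Spc25 (2.54) and Spc24 (2.54). The other held Prox1os (4.11, 3.43 to 4.96), the zinc finger factor St18 (3.56, 3.15 to 4.03), Btbd17 (3.03), the nuclear factor I genes Nfia (2.93, 2.61 to 3.30) and Nfix (2.60), the intermediate filament Vim (2.56) and the immediate early gene Jun (2.52). The smallest ratios were those of the striatal factor Zfp503 (0.0532), Mpped1 (0.165), the postsynaptic scaffold Dlgap1 (0.173), the splicing factor Rbfox1 (0.182), the MGE interneuron factor Maf (0.189), Nxph1 (0.195), neuropeptide Y (Npy, 0.195) and Six3os1 (0.202).

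Prox1os followed Prox1. It was at 113 CPM in members, 64.2 CPM in the cells with Prox1 but under 2 UMIs of Nr2f2, 31.0 CPM in the cells with Nr2f2 and no Prox1, and 10.5 CPM in the cells that met neither threshold. Within the members it was at 86.9 CPM (71.8 to 104) where the cell held 1 UMI of Prox1, 111 CPM where it held 2 and 129 CPM where it held 3 or more. Exons of the 2 genes overlap on opposite strands over 133 bases at their first exons, chr1:190170296-190170428, and the sources used here do not state whether counting used strand, so their counts are uncertain. That overlap lies 52261 bases from the 3' end of Prox1 and 46848 bases from that of Prox1os in the genome, and the libraries were made with a 3' kit. Exons of Nr2f2, Nr2f1, Dlx1, Sp9 and Six3 also overlap other genes on the opposite strand. How far those overlaps lie from the 3' ends was not measured.

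Members carried more cell cycle transcripts and fewer transcripts of mature neurons than the other young neurons. Of 19 progenitor and cell cycle genes at 20 or more CPM, 15 were 1.5-fold or more higher than in matched others and 0 lower, with a median log2 ratio of 0.80 against 0.00 over the 6940 genes. Of those 6940 genes 3.63% were higher and 5.76% lower. Top2a, which untangles replicated DNA, was at 307 CPM in members and 127 in matched others, Mki67 (Ki-67) at 126 and 60.6, Ccnd2, the cyclin of basal progenitors, at 313 and 194, Insm1, a factor of neurogenic divisions, at 119 and 71.2, and Sox9 at 98.2 and 46.5 CPM. The other 4 of the 19 included Pcna (1.20) and Tyms (1.48). Of 19 genes of neuron maturation, 8 were lower and 0 higher, with a median log2 ratio of -0.42. Stmn2, a regulator of microtubules in growing axons, was at 503 CPM in members and 1062 in matched others, Mapt at 436 and 838, the neurofilament gene Ina at 485 and 926 (its exons overlap those of Nt5c2 on the opposite strand), and the synaptic vesicle gene Syt1 at 116 and 233 CPM. In cells, 11.3% of members (8.91 to 14) and 4.80% of matched others (3.47 to 6.46) were above 0.5 in ln(1 + UMIs per 10000) for both Mki67 and Ccnd2. Cells below 0.5 for Nes, Hes5, Mki67, Ccnd1 and Ccnd2, called postmitotic here, were 36.1% of members (32.3 to 40.0), 57.4% of matched others (54.0 to 60.7) and 58.1% of all others. Depth limits this comparison, because the rule counts UMIs and a deeper cell can pass it more readily. The median was 7156 UMIs in members, 6298 in matched others and 11047 in the mitotic cluster 10 described below. With only cells of middle depth kept, genes 1.5-fold or more higher than in matched others fell from 252 to 197. What part depth has in the levels of the cell cycle and maturation genes was not tested.

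**Figure D2:**
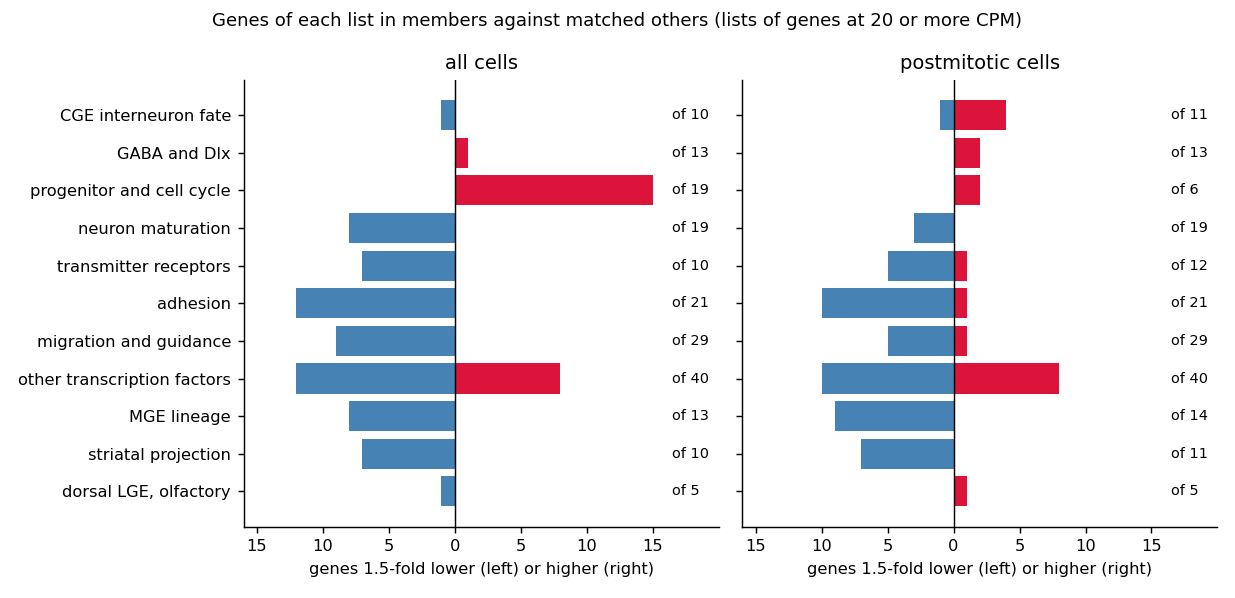
Number of genes of each list that were 1.5-fold or more higher (red, to the right) or lower (blue, to the left) in members than in matched others, out of the genes at 20 or more CPM given at the right edge. In all cells (left panel) 15 of 19 progenitor and cell cycle genes were higher. Among postmitotic cells (right panel) the lists of MGE lineage and striatal genes were on the lower side, with 9 of 14 and 7 of 11. There, 4 of 11 CGE fate genes were on the higher side. Over all genes, 3.63% were higher and 5.76% lower in all cells, and 3.08% and 5.15% among postmitotic cells.

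Because members were enriched in cycling cells, each ratio was also taken between the 224 postmitotic members and the 490 postmitotic matched others. Among 6937 genes, 214 (3.08%) were then 1.5-fold or more higher and 357 (5.15%) lower, and against the 993 postmitotic cells of all others 2.59% and 4.58% of 6905 genes. The mitotic genes were then low on both sides, with Top2a at 9.60 and 8.30 CPM and Ccnb2 at 2.74 and 2.99 CPM. This follows from the gate, which leaves out cells with Mki67, Ccnd1 or Ccnd2, and is no finding. Of 19 maturation genes, 3 (Stmn2, Snap25 and Vsnl1) stayed 1.5-fold lower. Stmn2 was at 733 and 1280 CPM (0.573, 0.535 to 0.613) and Mapt at 784 and 1027 CPM (0.764). Of the second kind of gene, Jun was at 1.14 (0.742 to 1.73) and the other 6 were above 1.5. Prox1os had a ratio of 5.28 (4.07 to 6.91), Nfix 3.66, St18 3.19 (2.48 to 4.10), Nfia 2.99 (2.43 to 3.69), Vim 2.69 and Btbd17 2.23 (1.26 to 3.95). Sox9, of the progenitor list, had 2.04.

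**Figure D3:**
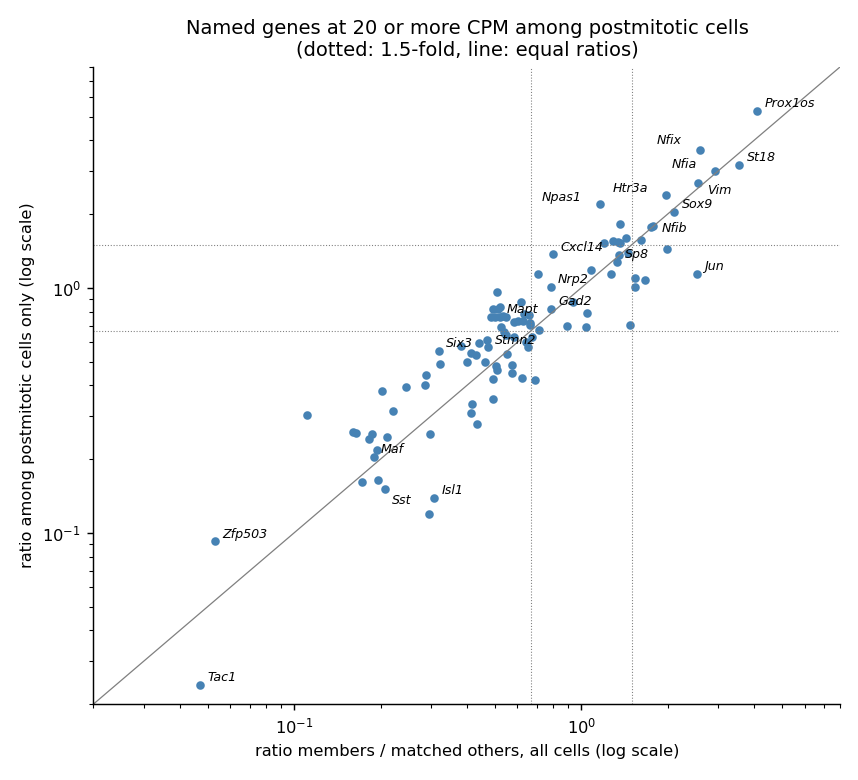
Ratio of members to matched others for 104 named genes at 20 or more CPM among postmitotic cells, in all cells (horizontal) and in postmitotic cells (vertical), both on log axes. Prox1os, St18, Nfia, Nfix and Vim lie near the line of equal ratios, Jun falls from 2.52 to 1.14, and Cxcl14 and Npas1 lie above the line.

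The CGE fate genes at 20 or more CPM differed little in all cells, and more of them passed 1.5-fold among postmitotic cells. Over all genes, 3.63% were higher and 5.76% lower than in matched others in all cells, and 3.08% and 5.15% among postmitotic cells. In all cells, 0 of 10 CGE fate genes were 1.5-fold higher than in matched others and 1, the cannabinoid receptor gene Cnr1, was lower. Among postmitotic cells 4 of 11 were higher and 1 (Cnr1) lower. Of the 4, Htr3a already had a ratio of 1.98 (1.31 to 3.03) in all cells but was under 20 CPM there, the intervals of Sp8 and of Dlx1 in the 2 settings overlapped, and Npas1, at 1.16 (0.932 to 1.44) in all cells, moved past its interval. Sp8 was at 144 CPM in postmitotic members and 93.3 in postmitotic matched others (1.54, 1.29 to 1.85), Npas1, a bHLH-PAS factor of CGE interneurons, at 69.3 and 31.5 (2.20, 1.64 to 2.94), Htr3a, the ionotropic serotonin receptor gene that most CGE-derived interneurons express, at 20.6 and 8.63 (2.38, 1.36 to 4.2), and Dlx1 at 659 and 434 (1.52, 1.4 to 1.65). Cxcl14 was at 187 and 137 CPM (1.37, 1.17 to 1.6), so its direction among postmitotic cells was opposite to that in all cells, and Nrp2 was at 125 and 124 CPM (1.01, 0.842 to 1.21). Nr2f1 (COUP-TFI), the relative of Nr2f2, was higher in members in both settings, with ratios of 1.35 and 1.36. Sp9, a factor of ganglionic eminence neuroblasts, had a ratio of 1.04 in all cells and 0.692 among postmitotic cells. Adarb2 was lower in members in all cells (0.705, 0.513 to 0.962) and had 1.14 among postmitotic cells (0.745 to 1.71). Among postmitotic cells Calb2 had 0.590 (0.261 to 1.22) and Reln 0.459 (0.224 to 0.869).

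The GABA and Dlx list was near even in all cells, with 1 of 13 genes higher past 1.5-fold and 0 lower, and 2 of 13 and 0 among postmitotic cells. Over all genes, 3.63% were higher in all cells and 3.08% among postmitotic cells. Ratios were 1.45 for Dlx2, 1.37 for Dlx1, 1.33 for Dlx5, 1.08 for Gad1 and 0.784 for Gad2.

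Among 40 other neural transcription factors, 8 were higher and 12 lower than in matched others, where 3.63% and 5.76% of all genes were. The nuclear factor I genes, which in the forebrain act in the timing of progenitor differentiation and gliogenesis, were all on the higher side where they passed, with Nfia at 215 and 73.4 CPM (its exons overlap E130114P18Rik on the opposite strand), Nfib at 741 and 418 CPM and Nfix at 56.9 and 21.9 CPM. The zinc finger factors St18 and Myt1, of 1 family, were at 224 and 62.9 CPM and at 132 and 81.9 CPM. Pou3f3 (1.75), Sox5 (1.54) and Lmo1 (1.99) completed the 8. Among postmitotic cells Sox5 (1.09) and Lmo1 (1.44) were under 1.5-fold and the other 6 were not. The lower 12 included the LIM-only genes Lmo3 and Lmo4 (0.620 and 0.552), the TALE homeobox genes Meis2 and Pbx3 (0.545 and 0.574), the Id genes Id2 and Id4 (both 0.492), Pou3f1 (0.221), Zfhx3 and Zfhx4 (0.415 and 0.509), and Bcl11a and Bcl11b (0.666 and 0.656). Among postmitotic cells 10 of 40 were lower, beside 5.15% of all genes. Of the 12, Meis2 (0.759), Bcl11a (0.707) and Bcl11b (0.778) did not pass there. Against postmitotic cells of all others, Meis2 was higher in members, at 1.36 (1.28 to 1.44). Pou3f1 and Pou3f3, relatives in the same POU class, thus lay on opposite sides, and did so among postmitotic cells too, at 0.316 and 1.78.

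Genes of the MGE and striatal lineages were lower in members than in matched others, beyond the genes that the rule excluded. Over all genes, 5.76% were 1.5-fold or more lower than in matched others and 3.63% higher. Of 13 MGE lineage genes at 20 or more CPM, 8 were lower and 0 higher. Sst, the somatostatin gene, was at 68.7 CPM in members, 333 in matched others and 1181 in Lhx6 cells (the 610 high-Dcx cells with Lhx6 and none of the other excluded genes), Npy at 13.1, 67.1 and 415, Maf at 13.3, 70.3 and 240, and Nxph1 at 20.2, 104 and 415 CPM. Lhx8, of MGE cholinergic and projection neurons, had no UMI in members. Of 10 striatal projection genes, 7 were lower and 0 higher. Isl1, which directs striatonigral neurons, was at 27.1 CPM in members, 87.9 in matched others and 1145 in the 127 Ebf1 cells, Foxp1 at 36.1, 121 and 307, and Zfp503 at 3.65, 68.7 and 315 CPM. Tac1, the substance P gene, was at 1.50 CPM in members, 32.0 in matched others and 62.0 CPM in the Nr2f2 cells without Prox1. Six3 was at 179 and 559.5 CPM. Since 0 UMIs of Lhx6 or Ebf1 in a cell of this depth does not exclude that lineage, some matched others may still be MGE-type or striatal cells, and what part they have in these ratios was not tested. Pax6 and Meis2 of the dorsal LGE and olfactory list were at 115 and 128 CPM and at 711 and 1304 CPM. Of 5 genes of that list, 0 were higher than in matched others and 1 (Meis2) lower. Against all others, where 3.97% of all genes were higher and 5.66% lower, 2 of the 5 (Pax6 and Sp8) were higher and 0 lower. Among postmitotic cells, where 3.08% of all genes were higher than in matched others, 1 of 5 (Sp8) was higher and 0 lower.

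Genes of adhesion, guidance and transmission ran low in the members, beside 5.76% of all genes lower and 3.63% higher than in matched others. Of 21 adhesion genes 12 were lower and 0 higher, among them the neurite adhesion genes Chl1 (6.44 and 40.1 CPM, ratio 0.161), Lsamp (0.211) and L1cam (0.321). Of 29 migration and guidance genes 9 were lower and 0 higher. Unc5d, a netrin receptor, was at 2.58 and 23.3 CPM (0.111), Ephb1 at 9.02 and 48.3, Robo2, a Slit receptor, at 26.2 and 91.7, Ackr3, a chemokine receptor of MGE interneurons, at 12.2 and 41.6, and Erbb4, the neuregulin receptor, at 37.6 and 77.6 CPM. Of 10 transmitter receptor genes 7 were lower and 0 higher, with the AMPA receptor genes Gria1 (20.6 and 84.2 CPM) and Gria2 (224 and 374 CPM) among them. Among postmitotic cells, where 5.15% of all genes were lower and 3.08% higher, the same lists were counted again. There, 10 of 21 adhesion genes, 5 of 29 guidance genes and 5 of 12 receptor genes were lower, and 1 of each list was higher. The 10 included Cdh4 and the 5 receptor genes Glra2, which were not among the lower genes in all cells. The higher genes were Pcdh9 (1.83), the reelin receptor Vldlr (1.56) and Htr3a. Erbb4 then stood at 65.9 and 86.3 CPM (0.763) and Grin2b at 80.3 and 96.3 CPM (0.834, 0.667 to 1.04).

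Splitting the matched others by the part of the rule they failed, a split chosen after the values were seen, set members apart in 2 ways. The 420 cells with 2 or more UMIs of Nr2f2 and no Prox1 (Nr2f2 only) were mostly postmitotic (56.7%), as were the 335 that met neither threshold (neither, 63.6%), whereas 39.4% of the 99 cells with Prox1 and under 2 UMIs of Nr2f2 (Prox1 only) and 36.1% of members were. Both groups with Prox1 were thus rich in cycling cells, with Top2a at 307 CPM in members, 469 in Prox1 only, 101 in Nr2f2 only and 46.9 in neither, and Mapt at 436, 485, 895 and 882 CPM. Meis2 and Six3 instead ran opposite to Nr2f2, with lower levels in the groups with 2 or more UMIs of Nr2f2. Meis2 was at 711 CPM in members and 709.6 in Nr2f2 only against 1613 in Prox1 only and 1979 in neither, and Six3 at 179 and 318 against 635 and 852 CPM. Nfib, by contrast, was higher with Nr2f2, at 741 and 611 against 424 and 163 CPM. St18 was highest where both were present, at 224 CPM against 82.4, 107 and 22.5, and Nfia likewise at 215 CPM against 85.7, 121 and 41.2. Cxcl14 and Nrp2 were highest in Nr2f2 only, at 159.7 and 155 CPM against 96.7 and 82.3 in members. Sst was at 417 CPM in Nr2f2 only and 8.56 in Prox1 only.

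**Figure D4:**
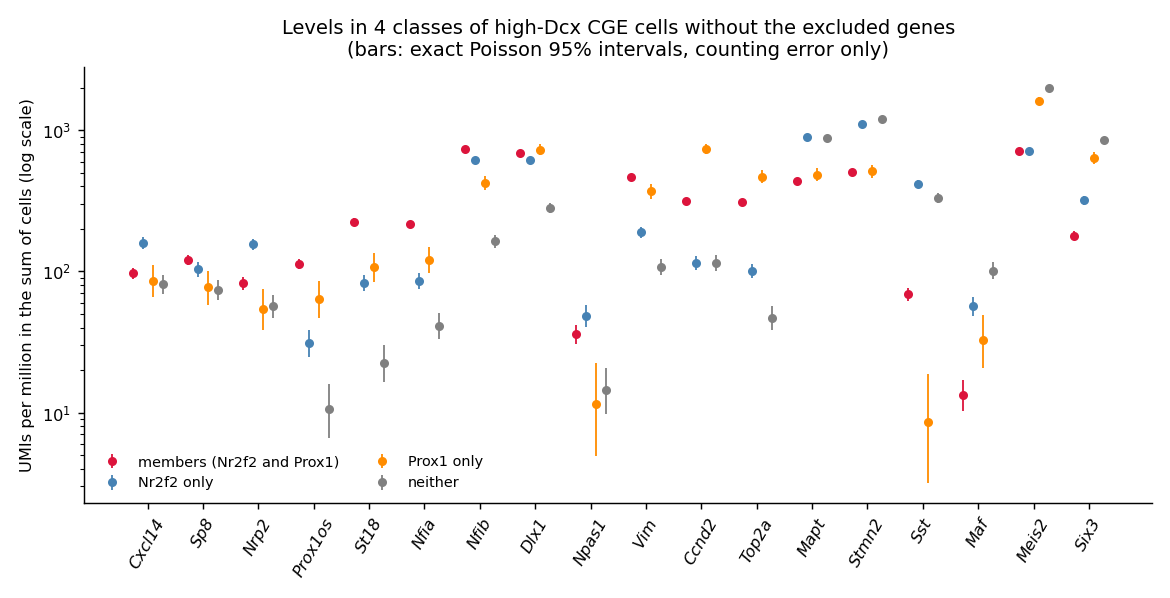
Levels (CPM, log axis) of 18 genes in the sums of the 4 classes of high-Dcx CGE cells without the excluded transcripts, with exact Poisson 95% intervals. Members (red) share low Mapt and Stmn2 with the Prox1 only cells (orange) and lower Meis2 with the Nr2f2 only cells (blue). They are highest for Prox1os, St18, Nfia, Nfib and Vim.

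Members were themselves mixed, from dividing cells to cells with neuronal transcripts. They were split after thinning to 3000 UMIs by detection of Cxcl14, Sp8 or Nrp2, and ratios give cells with the transcript over cells without it. The 98 Cxcl14 members had more transcripts of mature neurons and few of dividing cells. Mapt was 2.73 times and Stmn2 2.05 times that of the 515 others, Top2a 0.03 times, and the largest ratios were those of Edil3 (306 and 27.4 CPM, 11.2, 8.80 to 14.3), the synaptotagmin Syt4 (9.13), the cadherin Cdh13 (8.34), Fam19a5 (5.59) and Lrrc16a (5.18). Prox1 itself was 1.73 times higher, Npas1 3.57 times and Meis2 2.85 times, while St18 and Vim were at 0.25 and 0.20 times. These cells were shallower, with a median of 5978 UMIs against 7486, and Cdk1 was at 1.61 and 112 CPM. The 120 Nrp2 members resembled them, with Cxcl14 at 232 and 69.0 CPM (3.36), Edil3 3.18, Fstl5 2.79, the imprinted gene Ndn 2.72 and Hap1 2.66 times higher and Tpx2 at 0.180 and Insm1 at 0.201 times. Of the Cxcl14 members 38.8% (29.1 to 49.2) had a UMI of Nrp2, and of the others 15.9% (12.9 to 19.4). The 173 Sp8 members differed in another way. Pax6 was at 252 and 61.4 CPM (4.10, 3.43 to 4.91), Sst at 138 and 42.7 CPM (3.24), Cttnbp2 2.11 times higher and Lmo1 0.251 times (0.174 to 0.352), whereas Mapt had a ratio of 1.06 and Prox1 1.08. Few cells may carry the Sst ratio, as 5.48% of all members had a UMI of Sst. Detection of Cxcl14 was alike with and without Sp8, at 17.3% (12 to 23.8) and 15.5% (12.2 to 19.2) of members, and 314 of 613 members had none of the 3 transcripts. In matched others, by contrast, 34.2% of Sp8 cells (26.8 to 42.2) and 12.6% of the rest (10.2 to 15.3) had Cxcl14.

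On the other genes, members lay among each other. With the 7 rule genes left out, 62.1% of the 20 nearest neighbours of a member among all high-Dcx cells were members, where members made up 26.6% of the cells, and with other numbers of neighbours, components or genes, with thinned cells or with the rule genes kept the share was 59.6% to 63.6%. Nr2f2 only cells made up 18.5% of member neighbours and 18% of high-Dcx cells, Prox1 only cells 5.98% and 4.25%, cells with neither 5.21% and 14.4%, and Lhx6 cells 5.87% and 26.2%. Among cells with the same exclusions the share was 66.8% where members were 42.0%, and among the postmitotic of these 59.4% and 31.3%, both taken after the data were seen. These shares describe 1 library and were not tested, and correlates of the rule genes remain among the genes used.

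Clustering these cells, again without the rule genes, spread members over several states. Of 12 clusters, the 4 in which at least 50% of cells were members held 62.7% of the members. Cluster 4 (238 cells, 68.9% members) was led by Ccnd2, St18, Nudt4, Vim and Ezr, cluster 6 (176 cells, 54.0%) by Gadd45g, Btbd17, Lmo1, Btg2 and Rgs16, which include genes of the last neurogenic divisions, and cluster 10 (111 cells, 58.6%) by the mitotic genes Ndc80, Top2a, Nusap1, Aurkb and Prc1, with a median of 11047 UMIs. Cluster 12 (92 cells, 70.7%) was postmitotic in 67.4% of cells, was led by Col9a1, Edil3, Cdh13, Cxcl14 and Wscd1, and had the highest Prox1 of the 12, at 659.6 CPM, with Mapt at 1230 CPM. Cluster 1, the largest (404 cells, 38.9% members), was led by Cxcl14, Wnt5a, Rwdd3, Fstl5 and Ap1s2 and held 25.3% of members, and cluster 9 (138 cells, 28.3%), led by Six3os1 and Six3, held 6.29%. In each of the clusters 2, 3, 5, 7, 8 and 11, led among others by Maf, Npy, Sst, Cyp26b1, Isl1 and Tbr1, members were 0.645% to 8.28% of cells. Clusters 2, 3 and 5 held Lhx6 at 217, 280 and 231 CPM, and clusters 8 and 11 Ebf1 at 1399 and 253 CPM. The exclusions thus keep cells with these transcripts out of the members by rule. Prox1, which the rule requires, was low in these clusters too. It was at 19.1, 47.1, 26.5, 15.5 and 58.2 CPM in clusters 2, 3, 5, 8 and 11, against 190 to 660 CPM in clusters 4, 6, 10 and 12. Cluster 6 also held Lhx6, at 87.6 CPM. Cluster 7 held little Lhx6 or Ebf1, at 2.65 and 0.882 CPM, and had Prox1 at 44.1 CPM. Leading genes were used to build the clusters and are given to name them.

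**Figure D5:**
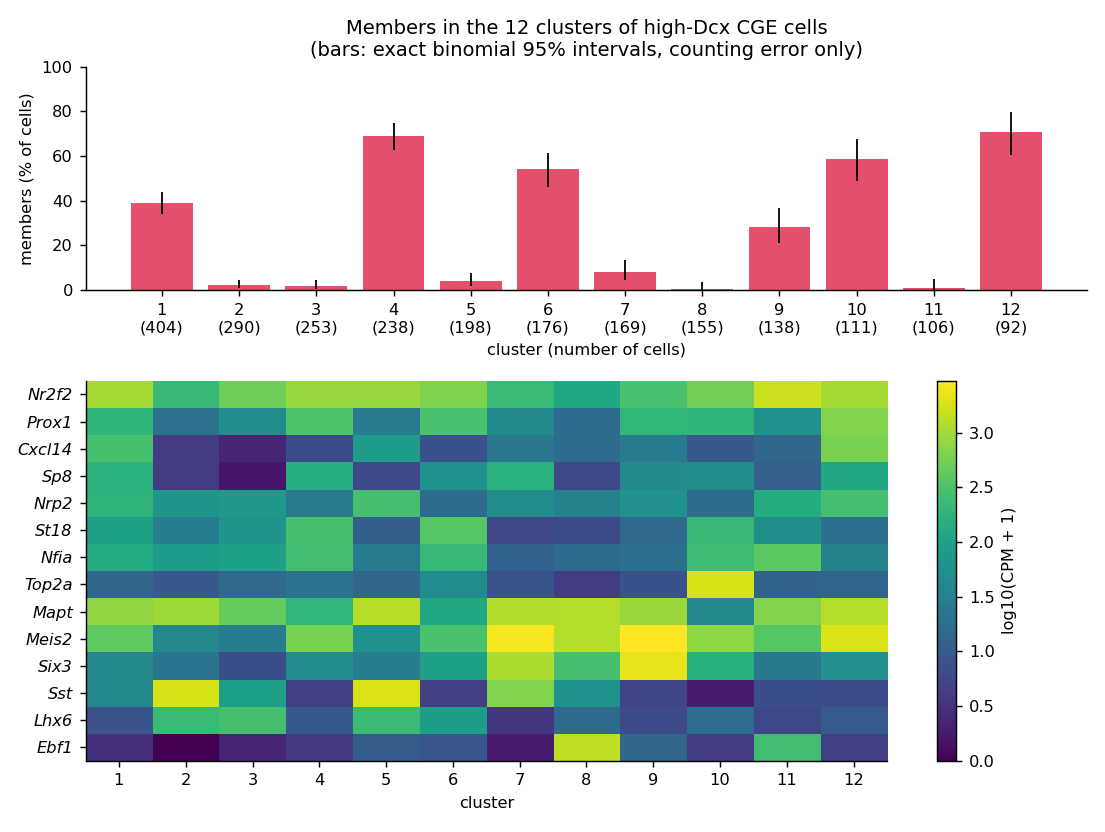
Share of members in each of 12 clusters of the high-Dcx CGE cells (upper panel, exact binomial 95% intervals, number of cells in brackets) and levels of 14 genes in the sums of each cluster (lower panel, log10(CPM + 1)). Members are most of clusters 4, 6, 10 and 12; cluster 12 combines high Prox1, Cxcl14 and Mapt, and clusters 4 and 6 combine high St18 with low Mapt.

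Members and matched others were also compared within the 6 clusters that held most members, and the differences were uneven. Within cluster 1, which held 157 members and 228 matched others, Prox1os (2.84, 2.14 to 3.80), Nfia (2.18, 1.73 to 2.76) and St18 (1.89, 1.42 to 2.51) were still higher in members, Cxcl14 was lower (0.405, 0.336 to 0.485), and Mapt and Stmn2 were at 0.69 and 0.61. Sst, lower in members over all cells, was higher in members there, at 77.3 and 5.15 CPM (15, 6.94 to 38.6). That interval counts UMIs and not cells. Over the whole groups, 5.48% of members and 10.1% of matched others had a UMI of Sst, so few cells may carry this ratio. St18 was also higher in members in clusters 4 (1.54, 1.21 to 1.98), 6 (1.52, 1.19 to 1.95) and 10 (1.87, 1.36 to 2.62), but not in cluster 9 (0.677, 0.12 to 2.63). Nfia had ratios of 2.28 (1.71 to 3.08) in cluster 4, 1.44 (1.05 to 2.01) in cluster 6, 1.23 (0.937 to 1.62) in cluster 10 and 1.13 (0.303 to 3.63) in cluster 9. Prox1os had 4.77 (2.60 to 9.76) in cluster 4, 4.30 (1.71 to 13.9) in cluster 10 and 5.97 (3.15 to 11.9) in cluster 9, but 1.22 (0.709 to 2.20) in cluster 6. Mapt was higher in members in cluster 9 (1.29, 1.11 to 1.49). Within cluster 12, with 65 members and 21 matched others, the ratios were 1.22 for Prox1os (0.704 to 2.25), 1.25 for Nfia (0.348 to 6.78) and 0.54 for St18 (0.114 to 3.31), too few UMIs to place any of them on one side.

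The 22 MGE cells that passed the rule, which come from another library, gave the one view outside the CGE and shared part of the pattern. They held Nkx2-1, of the MGE lineage list, at 378 CPM (62 UMIs), near the 469 CPM of the MGE matched others (0.806, 0.612 to 1.04). In the CGE, 2.90% of members had a UMI of Nkx2-1. Whether the 22 cells are of the same kind as the CGE members was not tested. Against the 297 matched others of the MGE library, Prox1os was at 116 and 12.2 CPM (9.52, 4.84 to 18.6), St18 at 458 and 95.1 CPM (4.81, 3.61 to 6.36), Nfib at 1026 and 340.0 CPM (3.02, 2.53 to 3.59), Nfia at 226 and 89.3 CPM (2.53, 1.72 to 3.64) and Top2a at 378 and 139 CPM (2.73, 2.03 to 3.62). Other cell cycle genes did not all lie on that side. Mki67 had a ratio of 1.68 (1.05 to 2.57), Nusap1 1.26 (0.521 to 2.62), Ccnd2 1.18 (0.864 to 1.59), Cdk1 0.877 (0.311 to 2.00) and Ccnb1 0.470 (0.15 to 1.13). Of the maturation genes Mapt had 0.622 and Stmn2 0.376, but Syt1 had 1.03 (0.728 to 1.42), Tubb2a 0.957, Ina 1.26 (1.00 to 1.57), Snap25 1.87 (0.953 to 3.41) and Rbfox3 2.58 (1.25 to 4.92). Sst had no UMI in the 22 cells and stood at 104 CPM in the matched others. Sp8 was at 48.8 CPM in the 22 cells, Nrp2 at 85.5 CPM and Cxcl14 at 12.2 CPM, from 8, 14 and 2 UMIs. With 163812 UMIs in all, 3 UMIs of a gene correspond to 18.3 CPM in these cells.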

How the data were processed

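Data were from 10x Genomics Chromium 3' libraries, 1 each from wild-type E12.5 CTX, MGE, CGE and LGE, pooled from several embryos per region. The authors deposited raw UMI counts per gene and barcode, made with Cell Ranger at default settings on mm10 (version 3.0.2 per the file headers and 3.0.0 per the labels), and applied no filter on genes per cell or doublets to these files. The annotation release and strand setting are not given in the sources used here. The labels describe sorting of live cells, while the study's methods describe wild-type cells without a sort, so shares of cells may carry a sorting step. Kept cells numbered 3248 in CGE with a median of 6967 UMIs, and 3634 to 4852 in the other libraries.

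Members, gene lists and comparisons were chosen with earlier results of these data known. UMIs were summed over cells and divided by the group's total (CPM), and ratios of CPM carry exact intervals on the split of UMIs (Clopper-Pearson, 95%), CPM exact Poisson intervals and shares Clopper-Pearson intervals. A count of 0 allows up to 3 counts. Genes at 20 or more CPM in either sum were compared, without the 7 rule genes, at a fold of 1.5. No test was run, since each region had 1 library, and nothing says whether cells shared an embryo. Neighbours (20) used ln(1 + UMIs per 10000), 2000 variable genes and 20 principal components. Clusters were made with leidenalg 0.10.2 at resolution 1.0. Thinning was to 3000 UMIs (seed 1). Doublets were not removed; an alternative removed 112 predicted ones of 3248, of which 28 were members. The ratio and its interval were tested on simulated data. Named genes were the 5 markers and the rule genes, list genes at 20 or more CPM past 1.5-fold with at most 6 others of a list, the 12 largest and 8 smallest ratios to matched others at 50 or more CPM, and the 5 leading genes of each split and cluster at 100 or more CPM. Positions are from GENCODE M21 by gene ID (42462 of 43346 features matched), and promoters from RefSeq. Some genes that the rule names are not reported here. Software was Python 3.11.15, scipy 1.17.1 and edgeR 4.0.16 (for TMM factors only).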

Additional observations from a re-analysis of the deposited data

Results flagged for a closer look

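Genes that lay on opposite sides in the CGE and MGE libraries, 1.5-fold or more and with both counting intervals off 1, were looked for among the named genes. With 1 library per region the difference itself was not tested, and it rests on 22 cells on the MGE side. Six3, a homeobox gene of striatal and hypothalamic precursors, had a ratio of members to matched others of 1.94 in MGE (1.42 to 2.61) and 0.320 in CGE. Its antisense partner Six3os1, whose exons overlap those of Six3, had 2.17 (1.13 to 3.89) and 0.202. Isl1 had 3.0 in MGE (2.06 to 4.26), at 250 and 83.5 CPM, and 0.308 in CGE. Zfhx3 had 1.7 (1.24 to 2.29) and 0.415, and the neuronal splicing gene Rbfox3 2.58 (1.25 to 4.92) and 0.584. In the other direction, Gadd45g had 0.274 in MGE, from 3 UMIs in the 22 cells (interval 0.0558 to 0.823), and 1.88 in CGE, and Ccnb2 had 0 UMIs in the 22 cells against 75 in the MGE matched others, with a CGE ratio of 2.97.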

How the results depend on the processing

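The share of members followed the thresholds on the rule genes. It was 29.1% with Nr2f2 at 1 or more UMIs, 23.6% at 3 or more, 18.3% with Prox1 at 2 or more UMIs and 31.8% without the exclusions, and within the interval of 26.6% under the other settings tried. Counts of genes depend on the cutoffs. In the order higher and lower than all others, then higher and lower than matched others, they were 2970, 5002, 2981 and 4036 with no filter on low genes, 125, 182, 104 and 176 at 50 or more CPM, and 127, 154, 98 and 151 at a fold of 2. Among postmitotic cells 179 genes were higher than in all others. Without cells that had Mki67 or Ccnd2 above 0.5 or 2 or more UMIs of Top2a, a setting added after the data were seen, 152 and 261 genes were higher and lower than in all others and 157 higher than in matched others. The 4 counts stayed within 1.5 times under the other settings, TMM scaling included. Members in clusters of at least 50% members were 51.3% at resolution 0.5 and 57.4% at 2.0.

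Of 4147 ratios of 130 named genes recomputed under the alternatives, 27 changed side among those 1.5-fold or more from 1, of which 26 arose where cycling cells were left out, and the remaining one was Lhx9 against all others (1.38) without the exclusions. Among postmitotic cells, against all others, these were Ccnb2 (0.801), Hmmr (0.882), Spc25 (0.735), Ccnb1 (0.275), Top2a (0.964), Tyms (0.662), Grin2b (1.00), Six3 (1.06), Tenm3 (1.18) and Vsnl1 (1.01), and against matched others Ccnb2 (0.918), Spc25 (0.636), Ccnb1 (0.243) and Mcm5 (0.995). Without cells with cell cycle transcripts, as above, they were, against all others, Nusap1 (0.613), Hmmr (0.990), Spc25 (0.429), Ccnb1 (0.733), Top2a (0.919), Tyms (0.882), Tenm3 (1.07) and Vsnl1 (1.08), and against matched others Nusap1 (0.657), Spc25 (0.328), Ccnb1 (0.600) and Top2a (0.985). Most of these mitotic genes were then at few UMIs, by construction of the setting. Beyond the 27, a further 742 of the 4147 ratios were classed as moved, and 3378 as the same. Of the 742, 156 arose without cells with cell cycle transcripts, 154 among postmitotic cells and 94 without the exclusions. Another 69 arose when only cells of middle depth were kept, 61 with Prox1 at 2 or more UMIs and 51 after thinning. The rest were spread over other settings, so the levels of many named genes depend on the processing.

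No paired analysis was possible because each region has 1 library, and leaving out a replicate was not possible for the same reason. Depth limits calls on scarce transcripts: 3 UMIs correspond to 0.644 CPM over the members, and a cell at the median depth can hold a transcript of the excluded genes that was not caught.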

Other observations

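Members with more UMIs of Nr2f2 differed from those with few in regional transcription factors. From 2, through 3 to 4 and 5 to 6, to 7 or more UMIs of Nr2f2 (71, 135, 130 and 284 cells), Meis2 was at 1508, 1017, 697 and 423 CPM and Six3 at 484, 220.4, 276 and 58.3 CPM, while Nfib was at 408, 511, 609 and 959 CPM and St18 at 111, 177, 208 and 273 CPM. Cxcl14 was at 193, 113, 99.4 and 68.4 CPM. Prox1 (464, 404, 412 and 399 CPM), Dlx1 (640, 717, 702 and 684 CPM) and Mapt (494, 421, 470.0 and 416 CPM) had no such order. Cells with 7 or more UMIs of Nr2f2 were deeper, with a median of 7569 UMIs against 6577 at 2 UMIs, and the part of depth was not tested. By UMIs of Prox1 (1, 2, and 3 or more) Meis2 was at 664, 633 and 775 CPM and Nfib at 651, 787 and 773 CPM.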
